A study of Mus musculus with 15 samples.

Results

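The 10 genes described here build, carry and oxidise the acylceramides of the skin barrier. They are Elovl4, Cyp4f39, Cers3, Pnpla1 and Abhd5 for synthesis, Abca12 for transport, and Alox12b, Aloxe3, Sdr9c7 and Ephx3 for oxidation. They were chosen by symbol, with no measured value in the rule but with earlier results of these data known. All 10 were found among the 23420 mouse genes of the count table. All 10 also passed the filter on low counts in each of the 5 comparisons made.

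Acylceramides are ceramides whose very long fatty acid is capped with linoleic acid. Keratinocytes of the upper layers make them, pack them into lamellar granules and secrete them, and lipoxygenases then oxidise the linoleate so that the ceramide can be bound to the proteins of the cornified envelope. In humans, loss of function of most of these genes causes ichthyosis, a disorder of a leaky and scaling epidermis.

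RNA-seq libraries were made at postnatal day 1 from mouse epidermis and from mouse tongue. Groups were epidermis of Tmprss11a,b,c,d,e,f,g-/- mice (KO, 4 libraries), epidermis of wild-type mice (WT, 3 libraries), tongue of the same knockout genotype (4 libraries) and tongue of wild-type mice (4 libraries). The knockout lacks the 7 HAT/DESC proteases, serine proteases anchored in the membrane of surface epithelia, and the study asked what they, HAT-like 4 in particular, do in the forming barrier of the epidermis. The labels give every library the same strain entry, the name of the gene cluster, and no other allele or treatment. Epidermis was peeled from dermis after heating in EDTA, whereas the tongue was taken whole. Read as animal names, the A-numbers in the labels stand for 9 animals, and 6 of these have a library of each tissue. The numbers fall into 3 ranges, written A32x, A34x and A38x here, which the labels do not explain. The labels do not otherwise say that samples of a group were separate animals, so the p-values reflect sample-to-sample spread, which may be technical.

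Counted reads ran from 10117819 to 17819195 per library. Levels are given in CPM, which are counts scaled to library totals adjusted by TMM factors. Over the 6 targeted genes analysed here, summed CPM were 172 ± 55.4 in KO epidermis (SD, n = 4) and 272 ± 35.4 in WT epidermis (n = 3). They were 139 ± 6.55 in KO tongue and 362 ± 16.9 in WT tongue (SD, n = 4 each). An edited gene may still be transcribed, so these levels do not measure the proteases. Epidermis WT 1 stood apart, with 44.6% of reads from 2 mitochondrial ribosomal RNAs where the other 6 epidermis libraries had 20.1% to 23.8%. The epidermal keratin gene Krt1 averaged 21497 ± 5913 CPM in KO epidermis and 18287 ± 6352 CPM in WT epidermis, against 32.8 ± 3.58 CPM in KO tongue and 28.8 ± 9.21 CPM in WT tongue. The oral keratin gene Krt13 averaged 24.9 ± 14.4 and 19.7 ± 8.18 CPM in KO and WT epidermis, against 3629 ± 477 and 3336 ± 749 CPM in KO and WT tongue. Tongue also held muscle, shown by a 12-gene skeletal muscle list with a summed level of 32486 to 56970 CPM in tongue and 112 to 775 CPM in epidermis.

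The genes lie on 6 mouse chromosomes (build GRCm38). Aloxe3 and Alox12b are neighbours on chromosome 11, on the same strand, with 7.87 kb between them, and Ephx3 and Cyp4f39 lie 263 kb apart on chromosome 17. To show what stands at the start of genes with large and with small differences between the tissues, 4 promoter windows are printed, each from 250 bases before to 50 bases after the start of the gene (RefSeq, GRCm38.p6, 5′ to 3′ on the gene's strand). Abca12 (chr1:71414861-71415160, minus strand) and Sdr9c7 (chr10:127898285-127898584, plus strand) had the largest differences in wild type among the 9 members with a window. Cyp4f39 (chr17:32452473-32452772, plus strand) and Abhd5 (chr9:122351366-122351665, plus strand) had the smallest. Capitals mark matches to 3 motifs, searched on both strands with overlaps allowed. The GC box was spelled GGGCGG. The TATA box was searched as TATAAA. For the AP-1 site the letters were TGANTCA.
Abca12: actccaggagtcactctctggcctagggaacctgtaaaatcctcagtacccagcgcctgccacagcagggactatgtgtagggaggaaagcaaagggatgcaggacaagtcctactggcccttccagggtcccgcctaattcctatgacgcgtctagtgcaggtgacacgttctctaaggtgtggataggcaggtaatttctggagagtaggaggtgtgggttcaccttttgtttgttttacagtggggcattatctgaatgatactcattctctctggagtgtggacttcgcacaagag
Sdr9c7: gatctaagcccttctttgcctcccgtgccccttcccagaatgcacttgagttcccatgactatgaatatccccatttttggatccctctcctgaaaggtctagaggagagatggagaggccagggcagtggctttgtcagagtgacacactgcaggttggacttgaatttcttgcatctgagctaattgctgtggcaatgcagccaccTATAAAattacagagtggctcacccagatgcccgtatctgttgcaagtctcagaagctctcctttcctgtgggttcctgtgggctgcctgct
Cyp4f39: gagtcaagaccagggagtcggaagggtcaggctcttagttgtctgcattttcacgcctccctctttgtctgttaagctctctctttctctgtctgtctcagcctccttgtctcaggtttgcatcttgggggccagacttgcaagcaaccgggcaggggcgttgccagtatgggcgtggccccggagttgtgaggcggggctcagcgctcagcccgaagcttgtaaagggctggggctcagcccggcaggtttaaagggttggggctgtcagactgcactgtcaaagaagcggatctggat
Abhd5: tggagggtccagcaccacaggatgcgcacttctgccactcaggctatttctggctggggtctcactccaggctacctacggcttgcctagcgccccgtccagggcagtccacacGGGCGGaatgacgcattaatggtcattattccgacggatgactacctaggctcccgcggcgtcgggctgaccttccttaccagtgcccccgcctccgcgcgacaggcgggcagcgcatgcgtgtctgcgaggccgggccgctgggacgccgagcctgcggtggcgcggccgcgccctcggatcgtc
The Sdr9c7 window holds TATAAA 42 bases before the start, as do 13.6% of all 32851 windows somewhere in their length. GGGCGG was found in 4 of the 9 member windows (Alox12b, Ephx3, Abhd5 and Elovl4), and in 35.7% of all windows. TGANTCA was found in Ephx3 alone of the 9, and in 7.81% of all windows. The windows also differ in base composition. Those of Elovl4 and Abhd5 hold 35 and 32 CG pairs and are 71% and 67.7% G or C. Alox12b has 15 pairs, Cyp4f39 11 and Ephx3 8, at 66%, 58% and 54% G or C. Cers3 has 7 pairs and Pnpla1 6, at 50.7% and 54.7%. Those of Abca12 and Sdr9c7 hold 6 and 2 CG pairs and are 51.3% and 51% G or C. The medians over all windows are 7 pairs and 52.7%. A link of composition with the tissue difference was not tested. A match is a string of letters and no record of binding.

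All 10 genes were higher in epidermis than in tongue, in both genotypes. The log2 fold change (epidermis over tongue) had a median of 2.62 over the 10 in knockouts, from 1.82 for Abhd5 to 3.68 for Sdr9c7. In wild type the median was 2.52, from 1.41 for Abhd5 to 3.46 for Abca12. The medians over all genes tested were 0.07 and 0.03. Each of the 10 passed edgeR's quasi-likelihood test in both genotypes (adjusted p at most 2.44e-05 in knockouts and 0.000219 in wild type), whereas 32.7% of 16398 genes in knockouts and 32% of 16577 genes in wild type were called higher in epidermis. This fit did not pair the tissues by animal, although every knockout animal gave both. With the animal as a block all 10 were still called in knockouts (edgeR adjusted p at most 0.000108, for Abhd5). Every epidermis library lay above every tongue library for all 10, which held for 29.5% of genes in knockouts and 33.6% in wild type. Within A38x, the only range of animal numbers with 2 or more libraries in each group, all 10 were also called, with a median of 2.63 in knockouts and 2.65 in wild type, beside 56.0% and 69.6% of genes called in either direction. In bulk tissue, fewer cells of a type and less RNA per cell cannot be told apart.

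**Figure D1:**
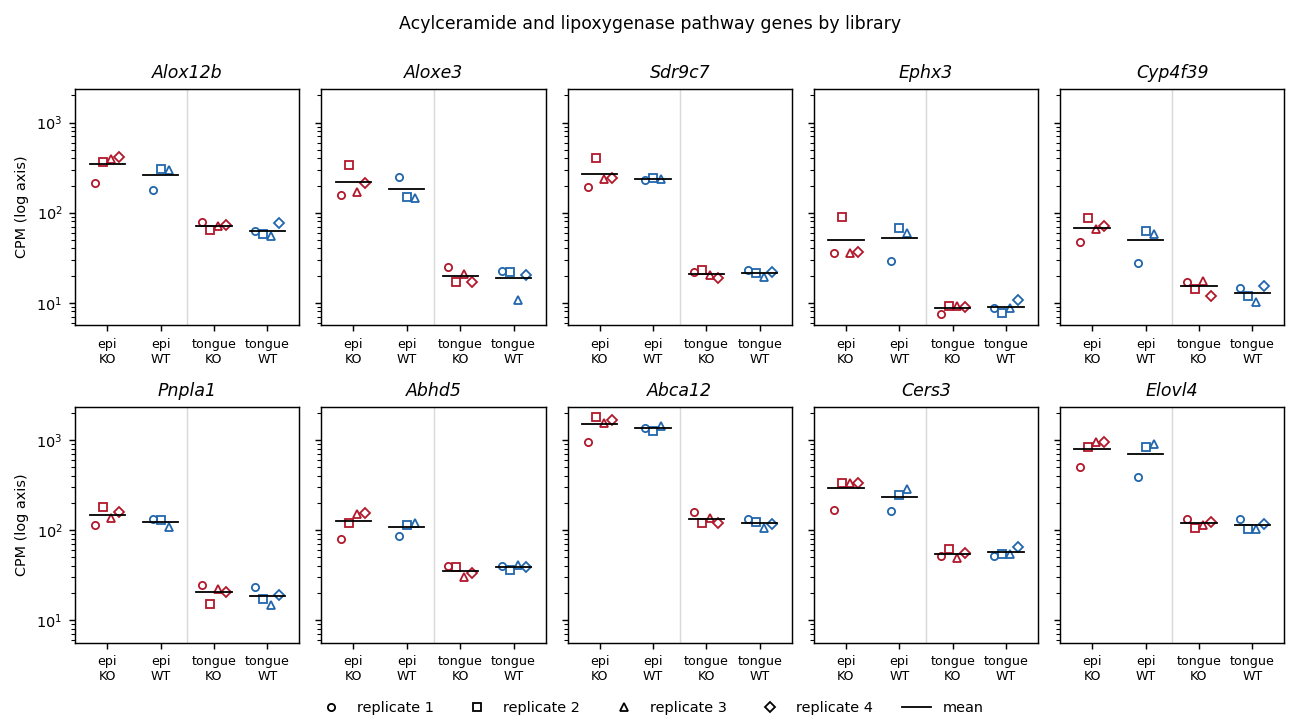
Level of each gene in every library, in CPM on a log axis. Red marks are KO libraries, blue marks WT libraries, shapes give the replicate and bars the group mean; in all 10 panels the 7 epidermis libraries lie above the 8 tongue libraries.

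The synthesis genes begin with Elovl4, an elongase that makes the very long fatty acids. It had 505, 826, 941 and 939 CPM in KO epidermis and 383.4, 843 and 894 CPM in WT epidermis. In tongue it had 132, 107, 114 and 122 CPM in KO and 134, 103, 102 and 117 CPM in WT. Replicate 1 was the low library of each epidermis group, and even so stood well above all 8 tongue libraries. The log2 fold change, epidermis over tongue, was 2.75 ± 0.22 in KO and 2.58 ± 0.28 in WT (SE; edgeR adjusted p = 6.89e-07 and 3.79e-05). Per kb of exon, which allows genes to be compared, Elovl4 was the highest of the 10 in every group, at 265 ± 68 CPM per kb in KO epidermis, 234 ± 93 in WT epidermis, 39.2 ± 3.56 in KO tongue and 37.6 ± 4.90 in WT tongue. Cyp4f39, the mouse counterpart of human CYP4F22, adds the terminal hydroxyl group. It had 46.7, 87.1, 65.7 and 71.0 CPM in KO epidermis and 27.5, 63.3 and 57.2 CPM in WT epidermis, against 11.9 to 17.6 CPM in KO tongue and 10.1 to 15.4 CPM in WT tongue. Its fold change was 2.15 ± 0.21 in KO and 1.88 ± 0.27 in WT (edgeR adjusted p = 3.35e-06 and 0.000219). Cyp4f39 belongs to a family of close relatives, so how its reads were split among them is uncertain.

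Cers3, the ceramide synthase that takes very long acyl chains, had 168, 335, 334 and 329.04 CPM in KO epidermis and 164, 247 and 283 CPM in WT epidermis. It had 48.8 to 61.8 CPM in KO tongue and 51.8 to 64.5 CPM in WT tongue. The log2 fold change was 2.41 ± 0.22 in KO and 1.98 ± 0.19 in WT (SE; edgeR adjusted p = 1.87e-06 and 1.7e-05). Pnpla1, the transacylase that attaches the linoleate, varied the least of the 10 over the epidermis libraries, by 1.63-fold, with 115 to 179 CPM in KO and 110 to 133 CPM in WT. It had 15.2 to 24.6 CPM in KO tongue and 14.9 to 23.3 CPM in WT tongue, and a log2 fold change of 2.84 ± 0.20 in KO and 2.69 ± 0.18 in WT (edgeR adjusted p = 2.02e-07 and 1.64e-06). Abhd5, a lipase cofactor that works with Pnpla1, is also known for fat breakdown in many tissues. It had 79.9, 119, 151 and 156 CPM in KO epidermis and 85.5, 115 and 121 CPM in WT epidermis, against 30.0 to 40.3 CPM in KO tongue and 35.9 to 41.1 CPM in WT tongue. This was the smallest difference of the 10, at a log2 fold change of 1.82 ± 0.21 in KO and 1.41 ± 0.14 in WT (edgeR adjusted p = 1.16e-05 and 2.65e-05). An antisense gene shares 16.0% of the exon bases of Abhd5 and reached at most 1.37 CPM. Another shares 13.3% of those of Pnpla1 and was not analysed here, and reads from the strands of such pairs cannot be told apart.

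Abca12 encodes the transporter that loads glucosylated acylceramides into lamellar granules, and its loss causes harlequin ichthyosis in humans. It had 960, 1786, 1538 and 1667 CPM in KO epidermis and 1361, 1268 and 1445 CPM in WT epidermis. In tongue it had 157, 120, 136 and 120 CPM in KO and 134, 124, 104 and 117 CPM in WT. The highest tongue library, KO 1, was far below the lowest epidermis library, which came from the same animal. The log2 fold change was 3.47 ± 0.24 in KO and 3.46 ± 0.19 in WT (SE; edgeR adjusted p = 2.14e-07 and 5.2e-07). The balance of Abca12 with Elovl4 also differed between tissues. The ratio of Elovl4 to Abca12 CPM was 0.463 to 0.612 in KO epidermis and 0.282 to 0.665 in WT epidermis, against 0.835 to 1.02 in KO tongue and 0.830 to 0.999 in WT tongue, with no overlap between tissues. How many other pairs of members were apart in the same way was not counted.

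Of the oxidation genes, Alox12b encodes the lipoxygenase that acts first on the linoleate. It had 215, 364, 390 and 409 CPM in KO epidermis and 181, 305 and 296 CPM in WT epidermis, against 63.6 to 79.5 CPM in KO tongue and 55.7 to 76.1 CPM in WT tongue. Aloxe3, its neighbour on the chromosome, encodes the enzyme that turns the hydroperoxide into an epoxy alcohol. It had 155, 335, 168 and 213 CPM in KO epidermis and 249, 149 and 146 CPM in WT epidermis, against 16.8 to 25.2 CPM in KO tongue and 10.7 to 22.6 CPM in WT tongue. WT 1, the lowest epidermis library for Alox12b, was the highest WT library for Aloxe3. The log2 fold change of Alox12b was 2.26 ± 0.21 in KO and 1.99 ± 0.20 in WT (SE; edgeR adjusted p = 1.77e-06 and 2.55e-05). That of Aloxe3 was larger, 3.44 ± 0.27 in KO and 3.23 ± 0.30 in WT (edgeR adjusted p = 5.15e-07 and 1.63e-05).

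The partners therefore stood in another proportion in each tissue. Per kb of merged exons, the ratio of Alox12b to Aloxe3 was 3.65, 2.85, 6.11 and 5.06 in KO epidermis and 1.91, 5.39 and 5.35 in WT epidermis. It was 8.29, 9.88, 8.90 and 11.3 in KO tongue and 7.34, 6.97, 13.7 and 9.92 in WT tongue. Every tongue library was above every epidermis library, and the genotypes overlapped within each tissue. With the length of the longest coding transcript in place of merged exons, which lowers the ratio by the same factor in all libraries, it was 0.900 to 2.88 in epidermis and 3.29 to 6.45 in tongue.

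Sdr9c7, the dehydrogenase that makes the reactive epoxy-enone, had 193, 408, 238 and 243 CPM in KO epidermis and 230, 240 and 239 CPM in WT epidermis. Its tongue libraries held 18.8 to 23.3 CPM in KO and 19.3 to 22.9 CPM in WT. The 3 WT epidermis libraries were within 1.04-fold of each other, and KO 2 alone was well above the rest. The log2 fold change was 3.68 ± 0.24 in KO and 3.42 ± 0.13 in WT (SE; edgeR adjusted p = 1.28e-07 and 1.24e-07). Ephx3, an epoxide hydrolase that opens the epoxide, had the fewest reads of the 10, from 92 in a tongue library. It had 35.6, 89.1, 35.8 and 36.6 CPM in KO epidermis and 29.1, 67.4 and 58.8 CPM in WT epidermis, against 7.43 to 9.25 CPM in KO tongue and 7.63 to 10.8 CPM in WT tongue. Its log2 fold change was 2.498 ± 0.31 in KO and 2.47 ± 0.26 in WT (edgeR adjusted p = 2.44e-05 and 3.25e-05).

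**Figure D2:**
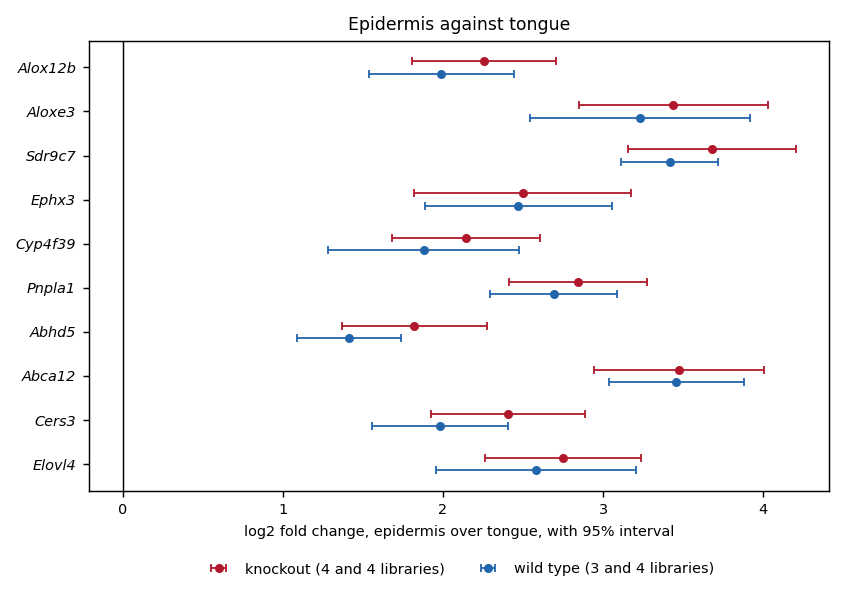
log2 fold change of each gene, epidermis over tongue, with its 95% interval from edgeR. Red points are knockouts and blue points wild type; all 20 intervals lie above 0, and Abhd5 has the smallest and Sdr9c7 and Abca12 the largest values.

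By level per kb of merged exons, Elovl4 and Alox12b were the first and second of the 10 in all 4 groups. In KO epidermis Abca12, Cers3 and Sdr9c7 followed, at 100 ± 24.7, 89.5 ± 25.3 and 88.9 ± 31.1 CPM per kb, and their libraries overlapped. The order after Alox12b in WT epidermis was Abca12, Sdr9c7 and Cers3, at 91.7 ± 5.98, 77.8 ± 1.80 and 71.1 ± 18.7 CPM per kb. Aloxe3, Pnpla1, Cyp4f39, Abhd5 and Ephx3 were lower, with means from 19.7 to 34.1 CPM per kb in KO epidermis and from 17.3 to 28.3 in WT epidermis, and neighbours among them overlapped. In KO epidermis the libraries of the lower 5 reached those of the upper 5, since Aloxe3 had 52.4 CPM per kb in KO 2 and Cers3 51.6 in KO 1. In WT epidermis they did not, with at most 39.0 CPM per kb for Aloxe3 and at least 50.4 for Cers3. In tongue Cers3 was the third gene, at 16.8 ± 1.72 CPM per kb in KO and 17.3 ± 1.72 in WT, above Abca12 at 8.996 ± 1.19 and 8.10 ± 0.837 with no overlap of libraries. The order depends on the lengths for Aloxe3, Abhd5 and Abca12, whose merged exons are much longer than their longest coding transcripts. Per kb of coding transcript, Abca12 stood second in epidermis, at 163 ± 40.1 CPM in KO and 149 ± 9.69 CPM in WT. Aloxe3 then stood at 72.2 ± 27.2 and 60.0 ± 19.5 CPM. With these lengths its libraries overlapped those of Cers3 in WT epidermis too, so the upper and lower 5 were not apart. Libraries of Cers3 and Abca12 overlapped in KO tongue, at 16.8 ± 1.73 and 14.6 ± 1.93 CPM. They stayed apart in WT tongue, at 17.4 ± 1.72 and 13.1 ± 1.36 CPM.

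The epidermis libraries were mostly epithelium, whereas the tongue libraries also held muscle and connective tissue. Levels were therefore also set against 14 genes common to both epithelia, such as Cdh1, Dsp and Krt5, whose summed level was 14553 to 20747 CPM in KO epidermis, 9414 to 20212 CPM in WT epidermis, 3320 to 4794 CPM in KO tongue and 3199 to 4515 CPM in WT tongue. This ratio within a library does not depend on the scaling between libraries. It split the pathway. Aloxe3, Sdr9c7, Pnpla1, Abca12 and Elovl4 were higher in every epidermis library than in any tongue library in knockouts, and these 5 and Ephx3 in wild type. Over all genes tested, 3.04% in knockouts and 3.73% in wild type had every epidermis library higher on this scale, and 82.2% and 72.5% had every one lower.

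On this scale Sdr9c7 was 2.75-fold higher in epidermis than in tongue in knockouts and 2.74-fold in wild type. Abca12 made up 6.60%, 9.89%, 7.58% and 8.04% of the summed epithelial level in KO epidermis and 14.5%, 6.28% and 8.42% in WT epidermis, against 2.84% to 3.61% in KO tongue and 2.96% to 3.59% in WT tongue. Aloxe3 was 2.34-fold and 2.40-fold higher in epidermis, Pnpla1 1.60-fold and 1.67-fold, and Elovl4 1.46-fold and 1.45-fold, each in knockouts and then in wild type. In wild type, epidermis WT 1 stood high for Aloxe3, at 2.65% against 0.736% and 0.848% in WT 2 and WT 3. It did so for Pnpla1 too, at 1.42% against 0.635% and 0.638%, and for Sdr9c7, at 2.44% against 1.19% and 1.39%. The summed epithelial level itself was low in WT 1, at 9414 CPM against 20212 and 17166 CPM in WT 2 and WT 3. With a library left out, the wild-type log2 values ran from 0.684 to 1.61 for Aloxe3 and from 0.351 to 0.931 for Pnpla1. Those of Sdr9c7 ran from 1.14 to 1.66 and those of Abca12 from 1.16 to 1.77. Ephx3 stood at 1.16-fold in knockouts, with libraries of the tissues overlapping, and at 1.35-fold in wild type, without overlap. Alox12b, Cers3, Cyp4f39 and Abhd5 overlapped in both genotypes. Alox12b made up 1.48% to 2.01% of the epithelial level in KO epidermis and 1.51% to 1.92% in WT epidermis, against 1.49% to 1.92% in KO tongue and 1.40% to 2.07% in WT tongue. Cers3 stood at 1.14-fold and 0.995-fold, Cyp4f39 at 0.973-fold and 0.899-fold, and Abhd5 at 0.769-fold and 0.677-fold, epidermis over tongue. No test was made on this ratio. The part that the share of epithelium in each tissue plays in the differences above was not tested.

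**Figure D3:**
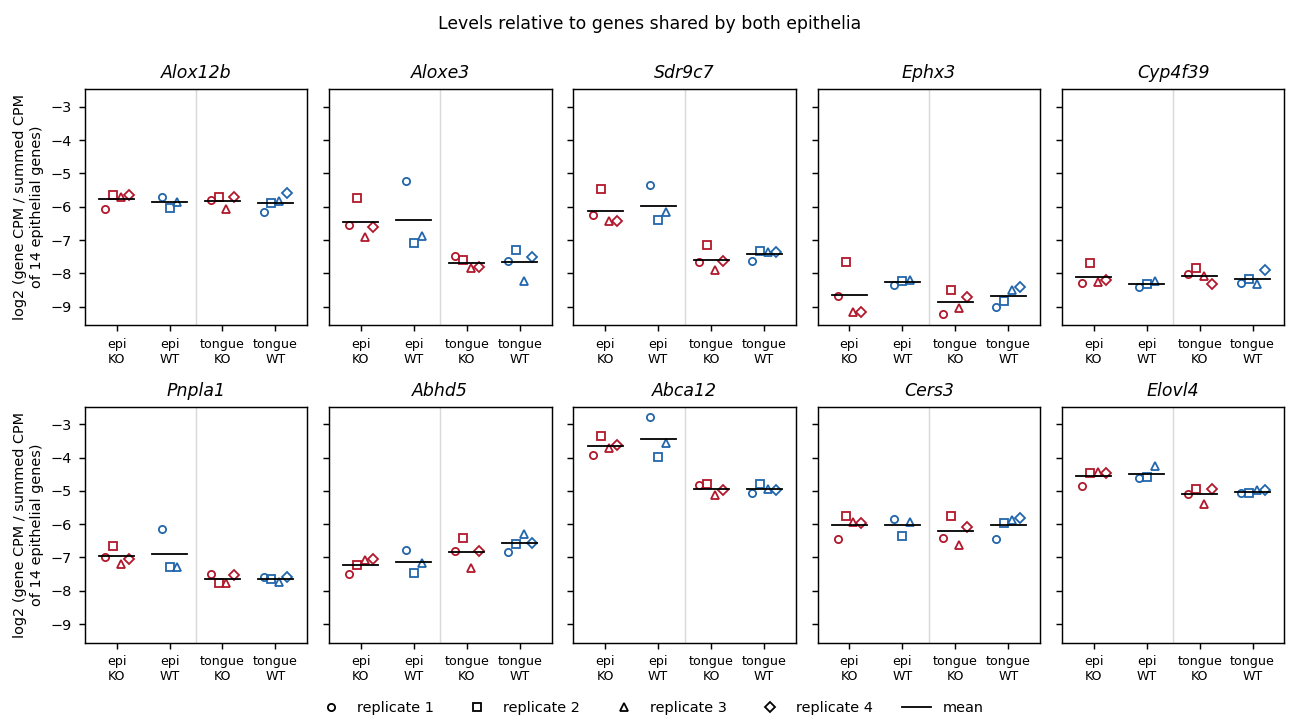
Level of each gene relative to the summed CPM of 14 genes common to both epithelia, on a log2 axis, in every library. Red marks are KO and blue marks WT; epidermis and tongue overlap for Alox12b, Cyp4f39, Abhd5 and Cers3, and are apart for Aloxe3, Sdr9c7, Pnpla1, Abca12 and Elovl4.

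All 10 genes had reads in every tongue library, where late epidermal markers ranged widely. Lor, the gene of the main envelope protein, averaged 77.9 ± 16.2 CPM in KO tongue and 63.5 ± 20.3 CPM in WT tongue, and Flg 11.1 ± 6.27 and 10.04 ± 6.54 CPM. Ivl, a precursor of the cornified envelope, averaged 1.48 ± 0.461 CPM in KO tongue and 1.47 ± 0.609 CPM in WT tongue (SD, n = 4 each). Casp14, a protease of cornifying cells, averaged 1.52 ± 0.388 and 1.33 ± 0.418 CPM in the same groups. The 15 markers of upper epidermis summed to 2092 to 2743 CPM in KO tongue and 2337 to 2854 CPM in WT tongue, against 47339 to 80112 CPM in KO epidermis and 42955 to 68103 CPM in WT epidermis. Summed over the 10 genes, the pathway held 470 to 557 CPM in KO tongue and 422 to 514 CPM in WT tongue, against 2474 to 4529 CPM in KO epidermis and 2844 to 3649 CPM in WT epidermis.

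A list of 22 other genes of acylceramide and barrier lipid metabolism was counted in the same comparisons. In knockouts 19 of 22 were called higher in epidermis by edgeR and in wild type 17 of 22, none lower. Their median log2 fold changes were 1.60 and 1.43. Among all genes tested, 32.7% in knockouts and 32% in wild type were called higher, with medians of 0.07 and 0.03. Elovl7, an elongase of long fatty acids, averaged 412 ± 117 CPM in KO epidermis and 21.7 ± 1.69 CPM in KO tongue, and 333 ± 81.4 CPM in WT epidermis and 18.7 ± 1.94 CPM in WT tongue. Elovl1, which makes the saturated chains that Elovl4 extends, averaged 551 ± 120 CPM in KO epidermis and 43.9 ± 9.41 CPM in KO tongue. Nipal4, a membrane protein whose human gene is mutated in ichthyosis, averaged 166 ± 36.8 CPM in KO epidermis and 17.2 ± 1.16 CPM in KO tongue. Sult2b1, the cholesterol sulfotransferase, averaged 64.8 ± 26.6 CPM in WT epidermis and 7.92 ± 0.746 CPM in WT tongue. Lipn, a lipase of the late epidermis, averaged 42.0 ± 11.1 CPM in KO epidermis and 32.2 ± 5.56 CPM in WT epidermis. It had 0 reads in all 4 KO tongue libraries, which allows up to 0.0562 CPM at 3 reads over the group (counting error only), and 1 read in 4 WT tongue libraries.

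Between genotypes no member passed the test in epidermis. Of all 16073 genes, 0 (0%) were called by edgeR, with 187 at an unadjusted p under 0.05 and none of the 10 members among them, and DESeq2 called 1. The log2 fold changes (KO over WT) ran from -0.07 for Ephx3 to 0.45 for Cyp4f39, and 9 of 10 were above 0, with a median of 0.24 where all genes had 0.00 and 50.2% above 0. The 22 other lipid genes had 21 above 0 and a median of 0.20, the 14 common epithelial genes 13 above 0 and a median of 0.28, and 15 markers of upper epidermis 14 above 0 and a median of 0.21. Markers of other cell types also stood mostly above 0, with 11 of 12 for skeletal muscle (median 1.25), 6 of 6 for adipocytes (0.82), 5 of 5 for melanocytes (0.58), 7 of 7 for fibroblasts (0.37), 4 of 4 tested for endothelium (0.54), 3 of 4 tested for mast cells (1.04), 3 of 4 for sebocytes (0.15) and 6 of 10 for tongue epithelium (0.26). The 3 leukocyte markers tested (-0.12) and the 6 mitochondrial genes tested (-0.57) were all below 0. Summed muscle markers were 112 to 775 CPM in KO epidermis and 116 to 289 CPM in WT epidermis, summed adipocyte markers 12.8 to 37.8 and 9.74 to 16.2 CPM, and summed fibroblast markers 659 to 876 and 452 to 767 CPM. Summed melanocyte markers were 82.9 to 149 CPM in KO epidermis and 48.9 to 100.4 CPM in WT epidermis. No gene in any of these lists passed the test, and their part in the members' values was not tested.

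The intervals show what sizes of effect these libraries leave possible. Alox12b averaged 345 ± 88.2 CPM in KO and 260 ± 69.3 CPM in WT epidermis (SD, n = 4 and 3), a log2 fold change of 0.40 with a 95% interval of -0.22 to 1.02. Pnpla1 had the narrowest interval, at 148 ± 27.4 CPM in KO and 124 ± 12.6 CPM in WT and 0.25 with -0.21 to 0.70. Ephx3 had the widest, at 49.2 ± 26.6 CPM in KO and 51.8 ± 20.1 CPM in WT and -0.07 with -0.98 to 0.83. Cyp4f39 reached 1.13 at its upper bound. In this fit a log2 value of 1, a change by a factor of 2, lay inside the interval for Alox12b and Cyp4f39, and a value of -1 lay outside all 10. Both statements depended on the fit. Without the filter on low counts the upper bound was 1.02 for Aloxe3, 1.05 for Cers3 and 1.002 for Elovl4. It was 1.28 for Aloxe3 without WT 1 and 1.04 for Elovl4 without KO 2. Within A38x it was 0.69 for Alox12b and 0.49 for Cyp4f39. The lower bound of Ephx3 was -1.04 without the filter on low counts, -1.15 within A38x, -1.20 without KO 2 and -1.29 without WT 1. KO and WT libraries overlapped for all 10 genes, as they did for all but 2.22% of genes tested.

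**Figure D4:**
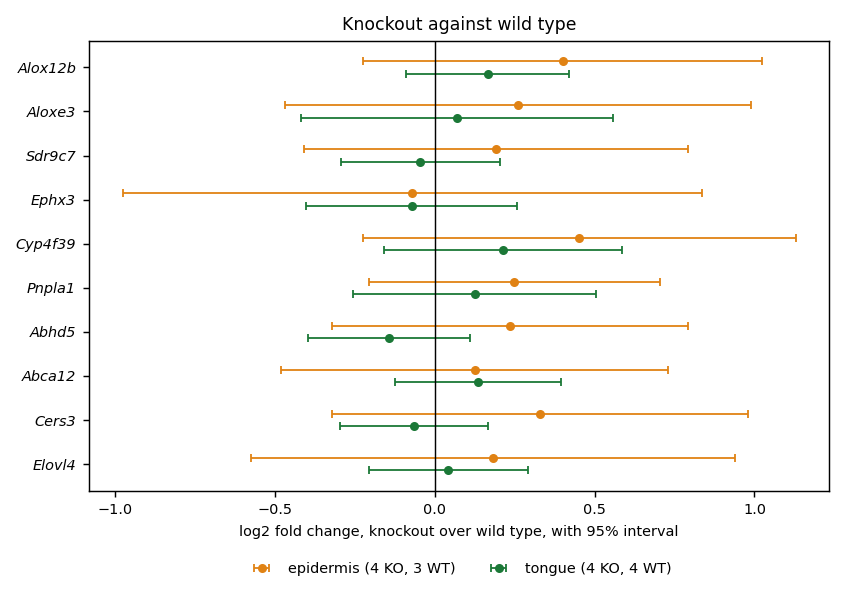
log2 fold change of each gene, KO over WT, with its 95% interval from edgeR. Orange points are epidermis and green points tongue; all 20 intervals span 0, and those of epidermis are the wider for each gene.

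The spread in epidermis came from a few libraries. KO 2 was the highest of the 7 for 7 genes (Aloxe3, Sdr9c7, Ephx3, Cyp4f39, Pnpla1, Abca12 and Cers3). It also had the highest summed markers of muscle (775 CPM, the others 112 to 289 CPM) and of tongue epithelium (2449 CPM, the others 592 to 1738 CPM). The same held for adipocyte markers (37.8 CPM, the others 9.74 to 24.2 CPM) and endothelial markers (8.29 CPM, the others 2.29 to 4.63 CPM). By a smaller margin it held for markers of upper epidermis (80112 CPM, the others 42955 to 79359 CPM). So it did for sebocyte markers (30.7 CPM, the others 14.9 to 29.2 CPM). KO 2 was not the highest for fibroblast, melanocyte, mast cell or leukocyte markers (743, 92.0, 22.2 and 57.1 CPM). Nor was it for the 14 common epithelial genes (18059 CPM). WT 1 was the lowest for 5 (Alox12b, Ephx3, Cyp4f39, Cers3 and Elovl4) and KO 1 for 3 (Sdr9c7, Abhd5 and Abca12). WT 1 did not lose the pathway evenly. Relative to the mean of WT 2 and WT 3, its Elovl4 stood at 44.1%, Cyp4f39 at 45.6% and Ephx3 at 46.1%. Its Sdr9c7 stood at 96.1%, Abca12 at 100% and Pnpla1 at 112%, and Aloxe3 at 169%. Epidermal markers parted in the same library, with Ivl at 39.7% and Krt1 at 51.0% of the mean of WT 2 and WT 3, and the envelope protein gene Lor at 205% and Flg at 136%. The summed level of 6 mitochondrial genes in WT 1 was 26510 CPM, against 9424 to 12697 CPM in the other 6 epidermis libraries. The part of RNA quality or of sample makeup in the patterns of WT 1 and KO 2 was not tested. Without WT 1 the fold change of Elovl4 was -0.11. Without KO 2 those of Aloxe3, Sdr9c7 and Ephx3 were -0.039, -0.089 and -0.53.

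**Figure D5:**
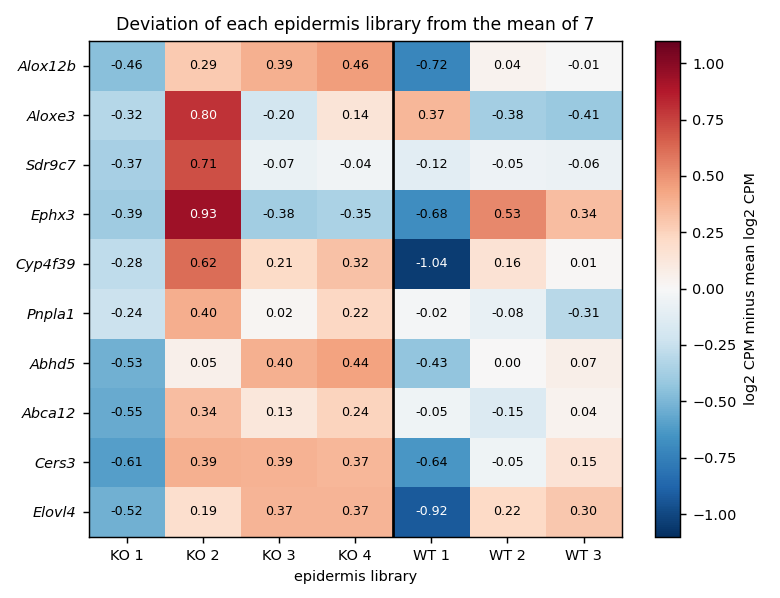
log2 CPM of each gene in each epidermis library minus the mean of the 7 libraries, with the value in each cell, 4 KO libraries left of 3 WT libraries. KO 1 is below the mean for all 10 genes and KO 2 above it for all 10, while WT 1 is lowest for Cyp4f39 and Elovl4 and above the mean for Aloxe3.

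In epidermis A38x held KO 3, KO 4, WT 2 and WT 3, A32x held KO 1 and WT 1, and A34x held KO 2 alone, so only A38x allowed a test. Within it 604 genes (3.83%) were called by edgeR, of 15760, and 1 of the 10 members. That gene was Ephx3, with 35.8 and 36.6 CPM in KO and 67.4 and 58.8 CPM in WT, and a log2 fold change of -0.82 (95% interval -1.15 to -0.48, edgeR adjusted p = 0.00964). The other epidermis libraries had 35.6 CPM in KO 1 and 89.1 CPM in KO 2, against 29.1 CPM in WT 1, so that the KO library was the higher in A32x. The edgeR adjusted p of Ephx3 between genotypes in epidermis ran up to 1 over the alternatives tried. Within A38x, 8 of 10 members were above 0, from -0.82 to 0.40, with a median of 0.26.

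In tongue none of the 10 members passed edgeR's test either, where 2 of 15741 genes (0.0127%) did, with 496 at an unadjusted p under 0.05, and DESeq2 called 4. The log2 fold changes, KO over WT, ran from -0.14 for Abhd5 to 0.21 for Cyp4f39, with 6 of 10 above 0 and a median of 0.06. Cers3, at 54.6 ± 5.62 CPM in KO and 56.4 ± 5.59 CPM in WT (SD, n = 4 each), had the narrowest interval, from -0.30 to 0.17. Aloxe3 had the widest, from -0.42 to 0.56, at 20.02 ± 4.01 CPM in KO and 18.9 ± 5.52 CPM in WT. The 10 intervals together ran from -0.42 to 0.59, so that a change by a factor of 2 lay outside all of them. Within A38x, with 2 libraries a group, the fold changes ran from -0.34 to 0.30 with a median of 0.10 and none was called, beside 0.0939% of genes. The ranges A32x and A34x held 1 tongue library a group and gave no test.

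The difference of the knockout effects, epidermis minus tongue, was not past the threshold for any member. Of 17935 genes edgeR called 0 (0%), with 299 at an unadjusted p under 0.05, and DESeq2 called 1. The 10 differences ran from 0.02 for Abca12 to 0.42 for Cers3 on the log2 scale, all above 0, with a median of 0.24 and intervals that all span 0. The direction depended on the fit. With the animal as a block, which pairs the tissues of an animal, 6 of 10 were above 0 (median 0.08). So were 6 of 10 within A38x (median 0.05, with 0.106% of genes called) and without epidermis KO 2 (median 0.06). Of the other lipid genes tested, 22 in epidermis and 21 in tongue, none passed between genotypes. Those with the highest levels were Elovl1, at 551 ± 120 CPM in KO and 477 ± 222 CPM in WT epidermis, and Psap, which encodes the saposins that help release ceramides, at 222 ± 12.1 CPM in KO and 203 ± 18.0 CPM in WT tongue.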

How the data were processed

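RNA-seq libraries of newborn mouse epidermis and tongue were analysed from 2 deposited tables. The submitters' processing notes name STAR 2.5.2a, the build GRCm38.p3 (mm10), and DESeq2, edgeR and limma with no version. The method of counting, the strand used and the annotation were not given in the sources used here, and kits named in the labels' protocols do not mark strand as far as stated. The authors deposited whole-read counts per gene, which were tested. A second deposited table holds signal values (counts scaled per library by the authors) and served as an alternative for levels.

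The members and gene lists were chosen with earlier results of these data known. Groups came from the sample titles. The 2 transgene entries were left out. Levels are CPM with TMM factors over all 15 libraries. For each comparison, low genes were removed (filterByExpr, minimum count 10) and TMM factors were computed anew. The robust, two-sided quasi-likelihood F test of edgeR 4.0.16 was run in R 4.3.3. With these factors, fold changes differ slightly from ratios of the CPM means. P-values were adjusted by Benjamini-Hochberg across every gene in the comparison and called at 0.05, and intervals are at 95%. Exon lengths came from GENCODE M21 for 23337 genes. The fit and its filter were tested on simulated data. The text names all 10 members, up to 4 called genes of the other lipid genes in each direction with the largest change or else the 2 with the highest level, and the highest relative per length of each member's family.

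Alternatives were DESeq2 1.42.0, limma-voom 3.58.1, other size factors, no filter, no mitochondrial ribosomal RNA, a block, the A-number range, and each library left out. The block was the animal for knockout tissues and for the difference between tissues, and the replicate number otherwise. A block by animal in wild type, the coding transcript length and the epithelial ratio without each library were added after seeing the data. Across epidermis KO and WT libraries of the same number, deviations from the group means correlated at 0.608, 0.196 and 0.434. Those of unlike number correlated at -0.625 to 0.397. In tongue the values for the same number were 0.537, 0.135, -0.121 and 0.211. KO and WT libraries of the same number come from different animals, and the main fits used no block. Tissues of the knockouts pair by animal. Counts behind a member's value ran from 92 to 28898 per library.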

Additional observations from a re-analysis of the deposited data

Results flagged for a closer look

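In 2 of 30 groups of 4 libraries, 1 per gene and group, a library lay far from the other 3. Chance alone gives about 1 in 20 such groups. Ephx3 had 89.1 CPM in epidermis KO 2, where the other KO epidermis libraries had 35.6 to 36.6 CPM. Cers3 had 168 CPM in epidermis KO 1, where the other KO epidermis libraries had 329.04 to 335 CPM. The cause was not tested in either case.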

How the results depend on the processing

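The tissue difference was called for all 10 genes in both genotypes under every alternative run. Between genotypes no member was called under any alternative in tongue. In epidermis 1 was called within A38x, where 604 genes were called, and DESeq2 and the fit with the A-number range each called 1 gene. In tongue DESeq2 called 4 genes and A38x 15. For the difference between tissues DESeq2 called 1 gene, A38x 19 and the fits with a library left out 0 to 1. Uncalled values near 0 changed sign, and the cause was not tested. In epidermis these were Sdr9c7 (-0.091 with the range as a factor and -0.0095 in A38x) and Abca12 (-0.016 with the range as a factor). With a library left out, epidermis values ran from -0.039 to 0.58 for Aloxe3, -0.089 to 0.30 for Sdr9c7, -0.53 to 0.15 for Ephx3 and -0.11 to 0.39 for Elovl4. In tongue they ran from -0.12 to 0.17 for Aloxe3, -0.094 to 0.0058 for Sdr9c7, -0.14 to 0.021 for Ephx3 and -0.012 to 0.13 for Elovl4.

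For the difference between tissues, the block by animal gave -0.25 for Ephx3, -0.083 for Cyp4f39, -0.11 for Abca12 and -0.22 for Elovl4, and 6 members above 0. A block by animal or by replicate number changed no call on a member in any comparison. A38x gave -0.69 for Ephx3, -0.026 for Cyp4f39, -0.013 for Pnpla1 and -0.0053 for Elovl4, also with 6 above 0. Ephx3 stood at -0.068 with limma-voom, -0.026 without the filter and -0.12 with the range as a factor, and Abca12 at -0.012, -0.020 and -0.023. With a library left out the values ran from -0.10 to 0.54 for Aloxe3, -0.033 to 0.39 for Sdr9c7, -0.45 to 0.27 for Ephx3, -0.012 to 0.48 for Cyp4f39, -0.11 to 0.17 for Abca12 and -0.13 to 0.37 for Elovl4, with 6 to 10 members above 0. Against the epithelial genes without Krt5 and Krt14, in wild type, Cyp4f39 stood at a log2 value of 0.031, where it was -0.15 with them, and Elovl4 at 0.72, where it was 0.54. With the deposited scaled values, 30 of 40 group means moved by less than the spread between libraries and 10 by more. Depth limits Ephx3 most, with as few as 92 counts in a library.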

Other observations

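Against relatives of the same gene family, 8 of the 10 genes were the leading form in epidermis in both genotypes, Aloxe3 and Pnpla1 being second. Per kb of merged exons, Cers3 stood at 89.5 ± 25.3 CPM in KO epidermis and 71.1 ± 18.7 CPM in WT epidermis, and the next ceramide synthase, Cers5, at 7.75 ± 0.733 and 9.15 ± 0.738. In tongue the next was Cers2, a synthase of long chains found in many tissues, at 11.7 ± 1.52 CPM per kb in KO and 11.7 ± 0.284 in WT, below Cers3 at 16.8 ± 1.72 and 17.3 ± 1.72. Among the lipoxygenases, Alox12 came after Alox12b and Aloxe3 in all 4 groups, at 8.88 ± 1.32 CPM per kb in KO epidermis and 9.22 ± 2.59 in WT epidermis, and 2.34 ± 0.339 in KO tongue and 2.22 ± 0.708 in WT tongue. Elovl1 was the closest relative of Elovl4 by level in epidermis, at 202 ± 43.9 CPM per kb in KO and 175 ± 81.6 in WT. In tongue Elovl1 stood at 16.1 ± 3.45 CPM per kb in KO and 16.3 ± 1.28 in WT, and Elovl5, an elongase of polyunsaturated chains, at 16.3 ± 2.98 and 14.8 ± 1.88. Rdh1, a retinol dehydrogenase, was the highest relative of Sdr9c7 in epidermis, at 15.5 ± 3.34 CPM per kb in KO and 18.5 ± 4.64 in WT, and Rdh5 that in tongue, at 0.462 ± 0.167 and 0.486 ± 0.0564. Of the Cyp4f relatives analysed, Cyp4f17 led in epidermis, at 3.08 ± 0.408 CPM per kb in KO and 2.87 ± 0.952 in WT, and Cyp4f16 in tongue, at 0.993 ± 0.0952 and 1.01 ± 0.139. Abca3 led the relatives of Abca12 in epidermis, at 8.52 ± 2.51 CPM per kb in KO and 8.89 ± 2.71 in WT.

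Some families had another order. Pnpla3, a lipase of fat droplets, stood at 74.5 ± 20.5 CPM per kb in KO epidermis and 60.4 ± 9.13 in WT epidermis, above Pnpla1 at 30.5 ± 5.67 and 25.6 ± 2.60. In tongue Pnpla2, the main lipase of stored triglyceride, led that family in KO at 9.02 ± 3.92 CPM per kb, and Pnpla8 in WT at 7.55 ± 0.323. Ephx3 led the epoxide hydrolases in epidermis, at 19.7 ± 10.6 CPM per kb in KO and 20.7 ± 8.04 in WT, and Ephx1, which acts on many foreign compounds, led them in tongue, at 7.41 ± 0.935 and 8.22 ± 1.18. Likewise Abhd5 stood above Abhd4 in epidermis, at 21.3 ± 5.91 against 7.86 ± 2.78 CPM per kb in KO and 18.0 ± 3.18 against 6.09 ± 2.16 in WT. In tongue Abhd4 was above Abhd5, at 10.3 ± 1.01 against 5.98 ± 0.8005 CPM per kb in KO and 9.80 ± 0.576 against 6.52 ± 0.376 in WT. Abca1, a cholesterol exporter, stood at 11.5 ± 5.39 CPM per kb in KO tongue and 7.38 ± 2.01 in WT tongue, beside Abca12 at 8.996 ± 1.19 and 8.10 ± 0.837. All values are means ± SD over 4 libraries, or 3 for WT epidermis, and none of these orders was tested. Of 46 relatives listed, 40 were analysed here.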
